A study of Homo sapiens with 22 samples.

Results

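CTCF is a zinc-finger protein that binds a long DNA motif, stops the loop-extruding cohesin ring and so marks the anchors of chromatin loops. A bound site usually carries a short stretch free of nucleosomes, which the transposase Tn5 can cut. The regions described here are CTCF regions called in HFFc6, found again in a CTCF list named for human embryonic stem cells, that overlapped an open-chromatin region of H1 and none of HFFc6. There were 4622 of them, which is 11.0% of the 41907 CTCF regions shared by both CTCF lists (95% Wilson interval 10.7 to 11.3%) and 5.62% of all 82297 HFFc6 CTCF regions. They are called H1-open CTCF regions below. They were chosen by measured values, namely presence or absence in the 4 peak lists, so those properties are descriptions and were not tested.

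HFFc6 is a subclone of a foreskin fibroblast line immortalised with telomerase (HFF-hTERT). H1 is a line of human embryonic stem cells. The assay ATAC-seq, in which Tn5 cuts open chromatin and no antibody is used, covered 8 HFFc6 and 2 H1 libraries. Cut&Tag, in which an antibody brings Tn5 to its target, covered 2 libraries for CTCF whose cell line label is HFFc6, although their titles name HFF1; 10 of the 22 libraries, against SMC1 and histone marks H3K4me3 and H3K27ac, were left out. No treatment is labelled for any group. Each list was 1 peak call for its group, so there are no values per library and no test between the lines. The sources used here do not give the assay and libraries behind the hESC-named CTCF list. Intervals below cover counting error over regions only, and read depth is unknown. As a check of the labels, an ATAC region within 1 kb of a gene end was found in H1 alone for 11 of 24 pluripotency genes and in HFFc6 alone for 1. For 26 fibroblast matrix and surface genes these counts were 0 and 2, with 23 found in both. Over all 19974 protein-coding genes they were 1656 and 1109, so the fibroblast list hardly tells the lines apart by this measure.

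Few promoters held a CTCF core motif, whether they met an H1-open region or a shared CTCF region of another class. Only promoters were searched, not the H1-open regions themselves, most of which met no promoter. The promoters of RefSeq (GRCh38 patch 14, 250 bases before to 50 after a start) were searched on both strands for a CTCF core of 12 bases (CCA, any 2 bases, AG, any 2 bases, GGC). It was present in 11 of 211 promoters that met an H1-open region (5.21%), against 2.41% of all 34961 promoters and 3.48% of 13893 promoters that met a shared CTCF region open in both lines. At shared regions open only in HFFc6 it was present in 4 of 102 promoters (3.92%), and at those open in neither line in 0 of 21. A count of 11 is small, and a match is a description of letters only. The 6 below had the highest HFFc6 CTCF fold enrichment among matches that lay before a start, and they are shown as examples of the matches whose distances to the summits follow. The match is in capitals, as read on the gene's own strand, with 44 bases on each side where the window lay between genes, 9 bases where it lay in an annotated gene, and fewer where the edge of the 250 bases came first.
ZNF814 (chr19:57889038-57889063, minus strand): acttccggcGCCCTCTGGTGGcggcc
lncRNA beside PRAME (chr22:22559290-22559319, plus strand): cgtctggggCCAGCAGGGGGCactagagtc
ZNF587B (chr19:57830233-57830298, plus strand): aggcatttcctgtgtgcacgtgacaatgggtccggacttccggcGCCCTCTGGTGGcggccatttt
IL2RB-AS1 (chr22:37166687-37166716, plus strand): cagaagttgCCACCAGAGGGCagtgcgcgc
RERG-AS1 (chr12:15151673-15151701, plus strand): taaatcatCCACCAGAGGGCactgccaga
PRSS50 (chr3:46717870-46717942, minus strand): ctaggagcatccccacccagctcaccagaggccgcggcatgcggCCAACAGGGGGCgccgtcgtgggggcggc

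The match of both zinc finger genes ran against the direction of the gene, and that of the other 4 ran with it. The ZNF814 and ZNF587B promoters shared an identical stretch of 73 bases. The sources used here do not say how reads from near-identical stretches were placed, and the part of such reads was not tested. In 10 H1-open regions that contained a promoter match, the centre of the match lay a median of 19.5 bp from the hESC-named CTCF summit, 36 bp from the H1 ATAC summit and 55 bp from the HFFc6 CTCF summit. In 411 regions open in both lines these medians were 100, 62.5 and 86 bp over 422 matches. The region at ZNF814 had an HFFc6 CTCF fold enrichment of 15.0, and the nearest HFFc6 ATAC region was 862 bp away. The region at ZNF587B had 9.86 with the nearest HFFc6 ATAC region 8963 bp away. Fold enrichment is the authors' value for each peak, a ratio to the background their caller estimated, and it is used here to rank and describe regions within 1 list.

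Among shared CTCF regions, H1-open regions ranked low in the HFFc6 list and high in the hESC-named list. Their median fold enrichment in the HFFc6 CTCF list was 5.35 (95% order-statistic interval 5.30 to 5.47; quartiles 3.88 and 7.58), against 9.16 (9.10 to 9.22) in shared regions open in both lines. Shared regions open only in HFFc6 had 6.86 (6.72 to 6.95) and those open in neither line 4.87 (4.71 to 4.96). Against the whole HFFc6 CTCF list, which had a median of 6.22, H1-open regions were less far down, at a median percentile of 41.6. All shared regions had a median percentile of 66.8. Only 9.15% of H1-open regions were in the strongest quintile of the HFFc6 CTCF list, where 32.4% of all shared regions lay. Their median was below that of regions open in both lines on each of 23 chromosomes, with medians of 4.87 to 6.12. Width moved with this: H1-open regions had a median width of 620 bp in the HFFc6 list, against 970 bp for regions open in both lines, and its part in the result was not tested. Cut&Tag itself cuts with Tn5, and the lower values stood at sites with no HFFc6 ATAC region. The part of open chromatin as such in Cut&Tag signal was not tested.

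In the hESC-named list the order was different. The strongest overlapping region had a median fold enrichment of 14.8 (14.6 to 15.0) at H1-open regions, 12.7 (12.5 to 12.8) at regions open in both lines, 10.9 (10.6 to 11.3) at those open only in HFFc6 and 11.6 (11.3 to 11.96) at those open in neither. The strongest quintile of that list held 49.98% of H1-open regions, against 40.4% of all shared regions. The H1-open median was the higher of the first pair on 23 of 23 chromosomes. This difference from regions open in both lines was gone when gene ends were left out. Away from gene ends, H1-open regions had 15.1 (14.9 to 15.4) and regions open in both lines 15.13 (14.98 to 15.28). H1-open regions had the higher median on 8 of 23 chromosomes. The gap in the HFFc6 list was still there without gene ends, 5.43 against 8.98.

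**Figure D1:**
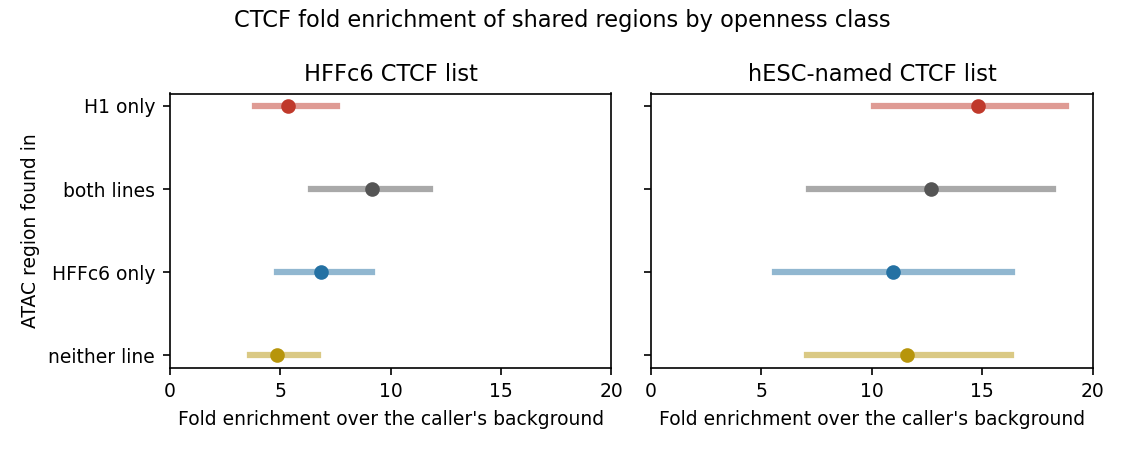
Fold enrichment in the HFFc6 CTCF list (left) and of the strongest overlapping region of the hESC-named CTCF list (right) for shared CTCF regions, in 4 classes by the ATAC lists they overlapped. Points are medians and bars join the quartiles; H1-open regions had a median of 5.35 on the left and 14.8 on the right.

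Set by both lists at once, and with gene ends included, H1-open regions gathered where HFFc6 CTCF was weak and hESC-named CTCF strong. The counts below were not repeated without gene ends. Of 524 shared regions in the weakest quintile of the HFFc6 list and the strongest quintile of the hESC-named list, 262 were H1-open (50%). In the opposite corner, strong in HFFc6 and weak in the hESC-named list, 2 of 262 were (0.763%). Of regions in the strongest quintile of both lists, 336 of 7850 were H1-open (4.28%). The weakest 2 quintiles in HFFc6 combined with the strongest 2 quintiles in the hESC-named list held 33.3% of H1-open regions, 30.6% of regions open in neither line, 5.86% of those open in both and 10.9% of those open only in HFFc6. This part held 10.9% of all shared regions. Of its 4549 regions, 39.6% were open in both lines and 33.9% were H1-open. The same weak-in-HFFc6, strong-in-hESC pairing therefore stood at regions open in neither line as well. Within the strongest quintile of the hESC-named list alone, the median HFFc6 CTCF fold enrichment was 6.49 at H1-open regions, 10.7 at regions open in both lines, 8.32 at those open only in HFFc6 and 6.05 at those open in neither.

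**Figure D2:**
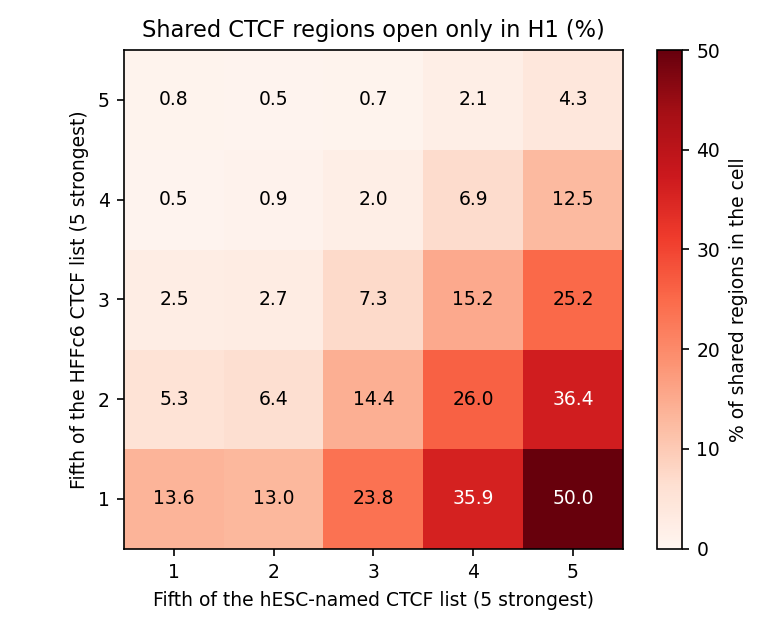
Percent of shared CTCF regions that were H1-open, by quintile of fold enrichment in the HFFc6 CTCF list (vertical) and in the hESC-named CTCF list (horizontal), with 5 the strongest. The share was 50% at lower right, weak in HFFc6 and strong in the hESC-named list, and 0.763% at upper left.

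The H1 ATAC summit lay close to the HFFc6 CTCF summit at these sites. The distance between the HFFc6 CTCF summit and the H1 ATAC summit had a median of 44 bp, and 55.0% lay within 50 bp (53.5 to 56.4%), against 44.3% of all shared CTCF regions open in H1 and 42.7% of those open in both lines. The share was higher than in regions open in both lines on 23 of 23 chromosomes, where it ran from 47.9 to 62.5%. Away from gene ends the shares were 56.1% and 50.1%. Both summits here come from Tn5 libraries of different cell lines. From the hESC-named CTCF summit to the H1 ATAC summit the median was 56 bp, and 45.8% lay within 50 bp. In regions open in both lines these were 72 bp and 37.8%. Between the HFFc6 and the hESC-named CTCF summit the median was 81 bp, and 33.6% (32.3 to 35.0%) lay within 50 bp, against 28.7% of all shared regions and 34.4% of those open in neither line. Regions at these sites were also narrower: the H1 ATAC region had a median width of 326.5 bp, against 499 bp in the class open in both lines. The part of width in the summit distances was not tested.

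**Figure D3:**
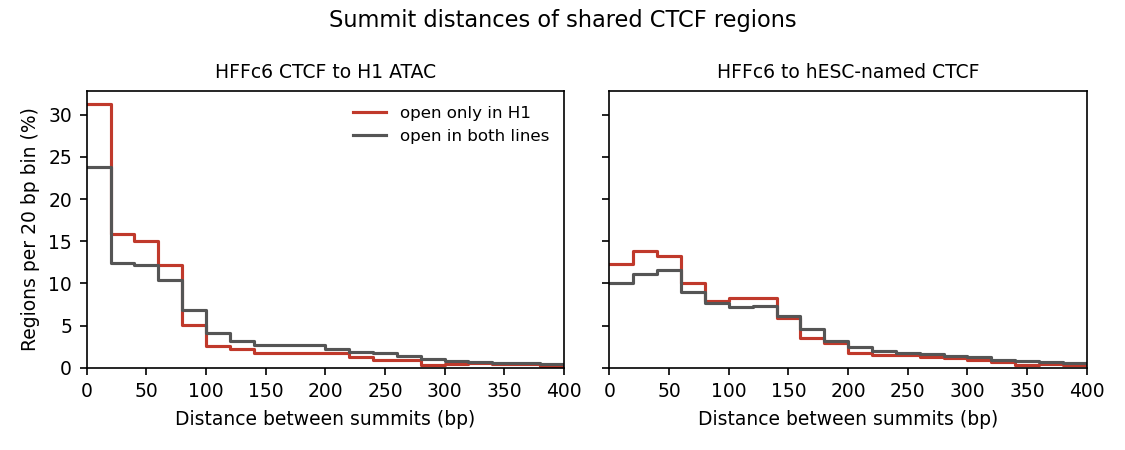
Distance in bp from the HFFc6 CTCF summit to the H1 ATAC summit (left) and to the hESC-named CTCF summit (right), as percent of regions per 20 bp bin, for regions open only in H1 and open in both lines. The H1-open curve is the higher one near 0 in both panels; medians were 44 and 81 bp.

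The H1 calls ranked in the upper part of their list. The overlapping H1 ATAC region had a median fold enrichment of 9.28 (9.07 to 9.41), at a median percentile of 74.2 within the H1 list, and 83.6% had a −log10 q of at least 10. Regions open in both lines had a median of 11.0. The rule used presence in this list, so these are descriptions.

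Most H1-open regions lay over 1 kb from any HFFc6 ATAC region, as did most shared regions open in neither line. The nearest HFFc6 ATAC region was a median of 3921.5 bp away, with quartiles of 1684 and 9984.5 bp, and 86.8% of H1-open regions had none within 1 kb. For regions open in neither line the median was 4021.5 bp, and 87.9% had none within 1 kb. The rule allows no overlap with an HFFc6 ATAC region, so these distances follow partly from it. For 305 H1-open regions (6.60%) the nearest was over 50 kb away and for 176 (3.81%) over 100 kb. Among regions open in neither line these shares were 3.86% and 2.15%. The closest to the limit lay 8 bp from an HFFc6 ATAC region, at KCNJ8, a potassium channel gene on chromosome 12 (21773359 to 21774009, hg38). The next were 16 bp away, inside HMCN2 on chromosome 9 and nearest to LOC124904660 on chromosome 19. Just outside the rule, regions inside MYO7A, nearest to TGM2 and nearest to FGFR3 overlapped an HFFc6 ATAC region by 4, 14 and 19 bp. Their HFFc6 CTCF fold enrichments were 2.49, 3.48 and 3.34, against 4.40, 3.79 and 3.94 for those just inside.

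Most H1-open CTCF regions lay away from genes' ends. At most 1 kb from where a protein-coding or lncRNA gene starts or stops lay 636 regions (13.8%, 12.8 to 14.8%), against 32.7% of all shared CTCF regions and 40.3% of those open in both lines. The shares were 10.9% for regions open only in HFFc6 and 8.87% for those open in neither line. Elsewhere inside genes lay 2565 (55.5%), and 1421 (30.7%) lay between genes. The share at gene ends was below that of regions open in both lines on each of 23 chromosomes, at 7.69 to 19.8%. Promoters were compared outside chromosome 8 only: 173 of 4453 H1-open regions outside chromosome 8 overlapped a promoter (3.89%), against 31.3% of regions open in both lines. Regions open only in HFFc6 did so in 2.19% of cases and those open in neither line in 0.829%. The 211 promoters had a median of 16 CpG dinucleotides in 300 bases and a median GC content of 63.7%. The 13893 promoters at regions open in both lines had 27 and 66%, and all promoters had 14 and 58.7%. The 102 promoters at regions open only in HFFc6 had 10.5 and 57.8%, and the 21 at those open in neither line 6 and 48.3%.

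**Figure D4:**
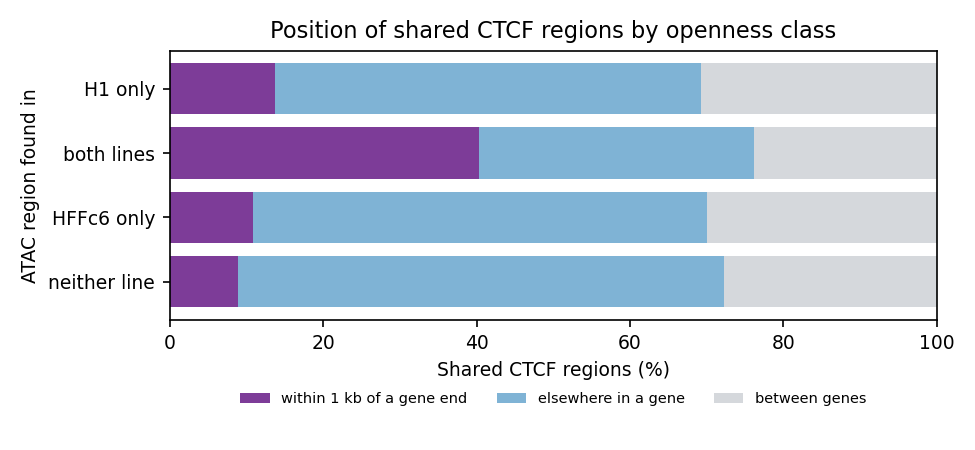
Share of shared CTCF regions in 3 kinds of place, at most 1 kb from a gene end, deeper in a gene or outside genes (protein-coding and lncRNA), for the 4 openness classes. H1-open regions were at gene ends in 13.8% of cases and regions open in both lines in 40.3%.

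The balance of ATAC regions around H1-open regions differed from that around regions open in both lines, at a level that depended on the strength of the regions counted. Within 50 kb of the centre, leaving out regions that overlapped the site itself, H1-open regions had a median of 8 H1 and 7 HFFc6 ATAC regions, while regions open in both lines had 7 and 8. More H1 than HFFc6 regions stood around 50.6% of H1-open regions (49.2 to 52.1%), against 41.5% of all shared regions, 41.1% of those open in both lines and 34.3% of those open only in HFFc6. The share exceeded that of regions open in both lines on 22 of 23 chromosomes. No other HFFc6 ATAC region lay within 50 kb of 308 H1-open regions (6.66%), against 1.50% of regions open in both lines and 3.86% of those open in neither. The H1 list is the longer one, with 189982 regions against 155746, but only 48.4% of it passed a −log10 q limit of 10, while 85.2% of the HFFc6 list did. With this limit applied to every list, more H1 than HFFc6 regions stood around 29.0% of H1-open regions and 18.9% of regions open in both lines.

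H1-open regions also lay next to each other. A neighbouring shared CTCF region on either side was H1-open too for 1249 of them (27.02%, 25.8 to 28.3%), against 20.4% of all shared regions. They formed 553 runs of at least 2, of which 106 held 3 or more; 3373 regions stood alone. The longest run had 7 regions over 354.8 kb on chromosome 16 (85986893 to 86341696, hg38), between FOXF1, a forkhead factor of lung and gut mesenchyme, and IRF8, a factor of myeloid and B cells. That span held 34 H1 and 9 HFFc6 ATAC regions and no protein-coding gene. HFFc6 CTCF fold enrichments there ran from 3.48 to 10.7 and hESC-named ones from 5.60 to 19.4. A run of 6 covered the growth factor genes FGF3, FGF4 and FGF19 on chromosome 11 (69703421 to 69882122), with 22 H1 and 3 HFFc6 ATAC regions. FGF4 is a growth factor known to be made by pluripotent cells. HFFc6 CTCF fold enrichments in this run were 2.85 to 8.12. Counts over a span include the ATAC regions at its H1-open regions. The rule asks for those in H1 and allows none in HFFc6, so span counts lean to H1 partly by selection.

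Among the runs of 5, the widest crossed FLRT3 and part of MACROD2 on chromosome 20 (14142073 to 15237258). It held 58 H1 ATAC regions and 0 HFFc6 ATAC regions over 1095 kb, yet HFFc6 CTCF fold enrichment there was 6.26 to 13.98. FLRT3, a leucine-rich membrane protein of cell adhesion and FGF signalling, lies within the long gene MACROD2, which encodes a hydrolase of ADP-ribose. Another run of 5 lay in THSD4, a gene of the fibrillin microfibril network, on chromosome 15 (71485086 to 71652247). Its span held 14 H1 ATAC regions against 6 HFFc6 ones, but the whole gene held 51 and 52.

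A total of 2254 protein-coding genes overlapped an H1-open region, 11.3% of 19974, and 82 of them overlapped 3 or more. Most were counted for GSE1 and THSD4, with 8 each, among 30 and 17 shared CTCF regions. GSE1, a coiled-coil protein gene on chromosome 16, held 63 H1 and 45 HFFc6 ATAC regions, and its 8 regions had HFFc6 CTCF fold enrichments of 3.18 to 8.48 with a median of 5.14. CACNA1A, a neuronal calcium channel gene, held 6 H1-open regions among its 9 shared CTCF regions, with 22 H1 and 6 HFFc6 ATAC regions. Its 6 regions had a median of 7.65 in the HFFc6 list and 18.0 in the hESC-named list. DAB1, an adaptor of reelin signalling, and MACROD2 held 6 each, among 16 and 10 shared CTCF regions. They had 128 and 111 H1 ATAC regions against 41 and 21 in HFFc6. DAB1 spans 1552 kb and MACROD2 2058 kb, and long genes have more room for regions. ATAC counts over a gene also include those at its H1-open regions, so they lean to H1 partly by selection.

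The share of shared CTCF regions that were H1-open differed between chromosomes. It was highest on chromosomes 22 (17.3%, 15.0 to 19.96%), 17 (16.6%, 15.1 to 18.2%) and 19 (15.8%, 14.3 to 17.4%). It was lowest on chromosome 6 (8.14%, 7.10 to 9.31%), followed by chromosomes 3 (8.76%) and 13 (8.98%). The intervals of the first 3 did not meet those of chromosomes 3 and 6. Neighbours in the order, such as chromosomes 22 and 17, had overlapping intervals. The median over chromosomes was 10.4%.

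**Figure D5:**
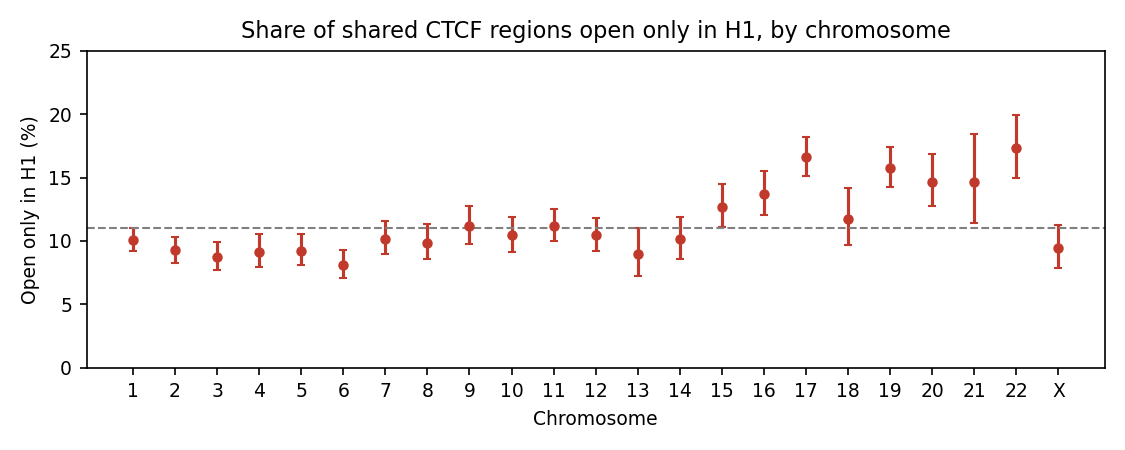
Percent of shared CTCF regions that were H1-open on each chromosome, with 95% Wilson intervals; the dashed line is the value over all chromosomes, 11.0%. Intervals of chromosomes 15 to 17 and 19 to 22 lie wholly above the line.

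Among single regions, the one with the highest HFFc6 CTCF fold enrichment was also the most open in H1. It lay between genes on chromosome 19 (47920060 to 47920590), 33745 bp from SULT2A1, a sulfotransferase of steroids and bile acids. Its fold enrichments were 29.7 for HFFc6 CTCF, 12.1 for hESC-named CTCF and 52.1 for H1 ATAC, and its HFFc6 CTCF summit lay 7 bp from each of the other summits. The nearest HFFc6 ATAC region was 20764 bp away. Of the 10 strongest in HFFc6 CTCF, 3 lay in this interval of chromosome 19. The others there were 23170 bp from SULT2A1, at 19.6, and 16692 bp from BSPH1, a sperm-binding protein gene, at 17.4. At the former, the HFFc6 CTCF summit lay 840 bp from the hESC-named CTCF summit and 839 bp from the H1 ATAC summit. Its fold enrichments were 7.37 for hESC-named CTCF and 4.84 for H1 ATAC. At the latter, the summit distances were 252 and 3 bp.

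The second strongest lay on chromosome 8 (7886837 to 7887549), 4174 bp from the antimicrobial peptide gene DEFB103A, at 23.4, with an H1 ATAC fold enrichment of 34.3. A region 28849 bp from GOLGA6L9 on chromosome 15 (82468002 to 82468548) had 22.8, and 40.7 in the hESC-named list, with the summits of both CTCF lists at the same base. A region inside the kinase gene PDPK1 on chromosome 16 (2560542 to 2561175) had 19.2 and 39.7. DEFB103A, GOLGA6L9 and PDPK1 have near-identical copies in the genome, and the part of shared reads in these values was not tested. A region 580729 bp from SETBP1 on chromosome 18 (44098603 to 44099344) had 20.8, with 0 HFFc6 and 6 H1 ATAC regions in the surrounding 50 kb. A region inside ATRNL1, an attractin-like membrane protein gene on chromosome 10 (115417454 to 115418095), had 18.8, and its nearest HFFc6 ATAC region was 208138 bp away. The remaining pair were at FGL1, a secreted fibrinogen-like protein gene, at 17.7, and near LINC02210-CRHR1 on chromosome 17, at 17.3.

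High H1 openness did not go with strong HFFc6 CTCF at each site. The 10 regions with the highest H1 ATAC fold enrichment ran from 29.0 to 52.1 there and from 2.84 to 29.7 in HFFc6 CTCF. The lowest of these, 58243 bp from HEMK2 on chromosome 21 (28517081 to 28517355), was at percentile 6.83 of the HFFc6 CTCF list and 436 bp from an HFFc6 ATAC region. A region 1761 bp from KLRF1, a receptor gene of natural killer cells on chromosome 12 (9797940 to 9798291), had 30.6 for H1 ATAC and 6.49 for HFFc6 CTCF. A region 50627 bp from CHSY3, a chondroitin sulfate synthase gene on chromosome 5 (129852496 to 129853352), was high in both, at 29.0 and 16.0. The other 4 of the 10 were nearest to NYAP2, CTAGE4 and SOCS6 or inside SLC17A8, a vesicular glutamate transporter gene, at 29.0 to 30.2.

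At protein-coding gene ends the strongest 10 in HFFc6 CTCF ranged from 12.9 to 17.7. Some sat on promoters. The region over the promoter of PRAME, a cancer-testis antigen gene on chromosome 22 (22558880 to 22560075), had 13.4 for HFFc6 CTCF, 19.5 for hESC-named CTCF and 17.2 for H1 ATAC. It also covers the lncRNA start whose match is printed above, and HFFc6 ATAC was 16229 bp away. PLAC1, a placental gene on chromosome X (134764211 to 134764703), had 12.9, 30.7 and 18.99 at its promoter, with the HFFc6 CTCF and H1 ATAC summits at the same base. The FLRT3 promoter on chromosome 20 (14336964 to 14338127) had 13.98, 16.5 and 17.6, and the nearest HFFc6 ATAC region was 281385 bp away. Promoters of BUB1B-PAK6, RNF130 and RCAN2, which encodes a calcineurin regulator, had 15.6, 13.8 and 12.9 in the HFFc6 list. The regions at SDK1 and CADM1, both cell adhesion genes, and at ZNF518B overlapped no promoter of the table used, and the region at FGL1 lies on chromosome 8, where promoters were not compared.

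Listed gene groups had few H1-open regions at their ends. Over all protein-coding genes, 470 of 19974 had one within 1 kb of an end (2.35%). None of 24 pluripotency, 18 epithelial, 24 germline, 10 neural progenitor, 16 neuronal adhesion, 20 mesenchymal factor, 24 imprinted or 15 housekeeping genes had one. Endoderm and mesoderm genes had 1 of 10, fibroblast matrix genes 1 of 26, CTCF and cohesin genes 1 of 15, HOX genes 1 of 39 and olfactory receptors 1 (0.255%). These were FOXA2, an endoderm factor, COL6A3, a collagen chain, CDCA5, the cohesin-protecting sororin, HOXD8 and OR51L1. Their HFFc6 CTCF fold enrichments were 6.19, 2.92, 3.31, 3.25 and 4.40, in this order. Around the FOXA2 region on chromosome 20 (22586093 to 22587194) lay 11 H1 and 1 HFFc6 ATAC regions within 50 kb.

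Inside genes, 4 of 18 epithelial genes overlapped an H1-open region, GRHL2, KRT8, SPINT1 and RAB25, and so did 4 of 16 neuronal adhesion genes, CSMD3, LRP1B, NLGN1 and SORCS1. Likewise 4 of 26 fibroblast genes did, COL5A1, COL5A2, COL6A3 and FAP, and 4 of 20 mesenchymal factor genes, ZEB1, RUNX1, OSR2 and HAND2. The background was 11.3% of protein-coding genes, lists of this size hold few genes, and their lengths differ. Germline genes had 2 of 24 and neural progenitor genes 1 of 10. The count was 0 for pluripotency (24), imprinted (24), housekeeping (15) and HOX (39) genes.

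Clustered protocadherins, neuronal adhesion genes whose alternative promoters carry CTCF sites, had 3 of 53 with an H1-open region at an end: PCDHA9, PCDHAC1 and PCDHGB6. The share at an end was 2.35% over all protein-coding genes. A shared CTCF region open in both lines lay at an end of 35 of the 53, and of 11530 of 19974 protein-coding genes. All 3 H1-open regions covered a promoter, which makes 3 of 47 protocadherins with a promoter in the table (6.38%). Over protein-coding genes with a promoter in the table, 111 of 15812 had one over an H1-open region (0.702%). The PCDHA9 region on chromosome 5 (140848299 to 140848960) had 6.03 for HFFc6 CTCF, 17.9 for hESC-named CTCF and 7.07 for H1 ATAC. The PCDHAC1 region (140926279 to 140927104) had 4.40, 24.0 and 9.66, and the PCDHGB6 region (141407707 to 141408297) had 6.76, 17.3 and 11.0. In these 3 regions the CTCF summits of both lists lay 211 to 332 bp apart, farther than the median of 81 bp. Annotated gene bodies of the cluster overlap each other: 29 of 53 genes overlapped an H1-open region, but many of these are the same regions.

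Zinc finger genes of chromosome 19, most of which encode DNA-binding repressors, had 5 of 250 with an H1-open region at an end (2%), close to the 2.35% of all protein-coding genes. Anywhere in the gene, 14 of 250 overlapped an H1-open region (5.6%), against 11.3% of all protein-coding genes. At promoters the count was 5 of 219 (2.28%), against 0.702% of all protein-coding genes in the table, with no test. That 0.702% covers all chromosomes, while the H1-open share of shared CTCF regions was 15.8% on chromosome 19, against 11.0% in total. The 5 promoters were those of ZNF135, ZNF154, ZNF587B, ZNF793 and ZNF814, the last at a start inside the annotated gene. HFFc6 CTCF fold enrichment was 2.55 at ZNF154, 3.94 at ZNF793, 4.40 at ZNF135, 9.86 at ZNF587B and 15.0 at ZNF814. H1 ATAC at these was 14.4, 9.01, 12.9, 17.4 and 10.8. ZNF814 and ZNF587B, the highest in HFFc6 CTCF, are the pair with the printed match.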

How the data were processed

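BWA, MACS2, bedtools and the build hg38 are named, with no role or order, per the submitters' processing notes. The sources used here do not give versions, filters, how replicates were combined, a control library or a Tn5 shift. The deposited fold enrichment (a ratio) and −log10 q-value of each peak are the authors', and every deposited list stops at a q of 0.05. The summit position is also the authors'. No list holds counts, and a list's number of regions is no depth.

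Only chromosomes 1 to 22 and X were analysed, and an overlap of 1 bp counted. Where several regions overlapped, the one with the highest fold enrichment was taken. Quintiles are 5 groups of a list by fold enrichment, about equal in size because tied values stay together. Genes came from RefSeq tables of GRCh38 patch 14, 19974 protein-coding and 18177 lncRNA genes; the gene table gives no strand, so both ends of a gene were used. Named regions are the 10 strongest in each of 3 rankings, the longest runs, the genes with most regions, listed genes and those at the limit of the rule. One of the longest runs is not reported here. The members, the 15 gene lists and the rules were chosen with earlier results of these data known. Overlaps, distances and classes were tested on simulated data with 0 disagreements over 600 and 1000 regions. Python 3.11.15, numpy 2.4.6, pandas 2.3.3 and scipy 1.17.1 were used.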

Additional observations from a re-analysis of the deposited data

Results flagged for a closer look

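The other chromosomes and unplaced sequences were left out of every comparison. There, 5 of 207 HFFc6 CTCF regions also met the overlap rule, and 99 of the 207 were shared by both CTCF lists. The 5 are given because they lie in data the report does not use. Nothing was tested on them.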

How the results depend on the processing

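No paired analysis was possible because each list is a single call for its group and its columns carry no replicate; for the same reason no library could be left out. Of 35 values recomputed under 9 alternatives, 12 stayed within the interval of the main value and 23 moved; the cause was not tested. The position of H1-open regions relative to regions open in both lines kept its direction in all alternatives run for 5 of the 6 measures compared. The exception was hESC-named CTCF fold enrichment without regions at gene ends (15.08 against 15.13), an alternative chosen after seeing the data.

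With an overlap of 50% of the shorter region, the median HFFc6 CTCF fold enrichment was 5.56, the hESC-named one 15.0 and CTCF summits within 50 bp 35.5%. With −log10 q of at least 10 in all lists, H1-open regions were 9.27% of shared regions, the medians were 6.83 and 16.5, neighbours were H1-open for 23.3%, and more H1 than HFFc6 ATAC regions lay around 29.0% (18.9% for regions open in both lines). With 500 bp around each summit these were 14.5%, 5.56, 14.2, 31.2% and 47.7%, with 18.2% at gene ends and 32.2% of CTCF summits within 50 bp. With no HFFc6 ATAC region within 1 kb, the share was 9.58%, the HFFc6 CTCF median 5.48 and the share with more H1 regions 53.2%. By construction, the gene end share was lower at 500 bp (9.89%) and higher at 2 kb (20.9%), and more CTCF summits lay within 100 bp (57.7%). The balance of ATAC regions also depended on the distance, which could have moved it either way. Within 200 kb, more H1 than HFFc6 regions stood around 57.1%, against 47.3% for regions open in both lines. Without replicates or depths, no difference between lines could be tested.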
